A study of Mus musculus with 20 samples.

Results

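RNA from mouse regulatory T cells (Tregs) was compared with RNA from CD8+ T cells after both had been given 200 nM IL-2 for 4 hr. The comparison took every library whose labels name IL-2 and 4 hr, which made 4 of the 20 libraries of the series, 3 of Tregs numbered 1 to 3 and 1 of CD8+ T cells. Tregs came from the spleen and lymph nodes of B6-Foxp3EGFP mice, in which GFP reports the transcription factor Foxp3, and were enriched with a CD4+ isolation kit and then sorted for GFP. CD8+ T cells came from the same organs of C57BL/6J mice, were enriched with a CD8+ isolation kit and were not sorted. The labels give C57BL/6N as the strain of all libraries. The labels give neither age nor sex, and the study's list of materials names female mice of both lines. Nothing says whether the 3 Treg libraries came from separate animals, so p-values measure the spread between these libraries. Sex-linked RNA, given below, set replicate 2 apart from replicates 1 and 3, so replicate 2 came from other animals than they did. Whether replicates 1 and 3 came from separate animals is not known, and the spread between them may be technical. The cytokine was human IL-2 fused to mouse serum albumin. The unstimulated groups, used as the background, were the same cells without cytokine (3 Treg libraries and 1 CD8+ library). The remaining groups had IL-2 for 1.5 hr or the partial agonist IL-2-REH at the same dose for 1.5 or 4 hr, again with 3 Treg libraries and 1 CD8+ library each. Cell type, mouse line and isolation cannot be told apart in this design, and a single CD8+ library gives no error of its own.

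IL-2 binds a receptor of 3 chains. The beta chain (Il2rb) and the common gamma chain (Il2rg) carry the signal through the kinases JAK1 and JAK3 to the transcription factor STAT5, and the alpha chain (Il2ra, CD25) raises the affinity of the receptor without signaling itself. Tregs are CD4+ T cells that suppress other immune cells, depend on Foxp3, and hold CD25 at a high level at all times. Resting CD8+ T cells, the precursors of cytotoxic cells, hold little CD25 until they are activated.

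The markers fitted the labels. Foxp3, which defines Tregs, had 151, 193 and 211 RPKM (reads scaled to exon length and to each library's number of mapped reads) in the 3 Treg libraries and 0.813 RPKM in the CD8+ library. Cd8a, a chain of the CD8 co-receptor, had 0.0879, 0.184 and 0.522 RPKM in Tregs and 203 RPKM in CD8+ T cells. Each marker was high in its own cell type and near 0 in the other, with no overlap. The Foxp3 gene lies at chrX:7579676-7595243 of GRCm38 on the plus strand and overlaps the annotated genes Ccdc22 and Flicr, whereas Cd8a, at chr6:71373427-71379171, overlaps none. Cd4, the co-receptor of helper T cells and Tregs, was at 79.4, 77.7 and 56.4 RPKM in Tregs and at 0.463 RPKM in CD8+ T cells. The other CD8 chain, Cd8b1, was at 4.38, 5.60 and 4.34 RPKM in Tregs and at 289.9 RPKM in CD8+ T cells, so some Cd8b1 RNA was found in Tregs where Cd8a was close to absent. In edgeR's quasi-likelihood test, the log2 fold change of Tregs over CD8+ T cells was 7.71 for Foxp3 (SE 0.55, adjusted p = 2.3e-06), 7.13 for Cd4 (SE 0.37, adjusted p = 1.5e-07), -9.76 for Cd8a (SE 1.36, adjusted p = 0.0006) and -6.06 for Cd8b1 (SE 0.32, adjusted p = 1.5e-07).

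**Figure D1:**
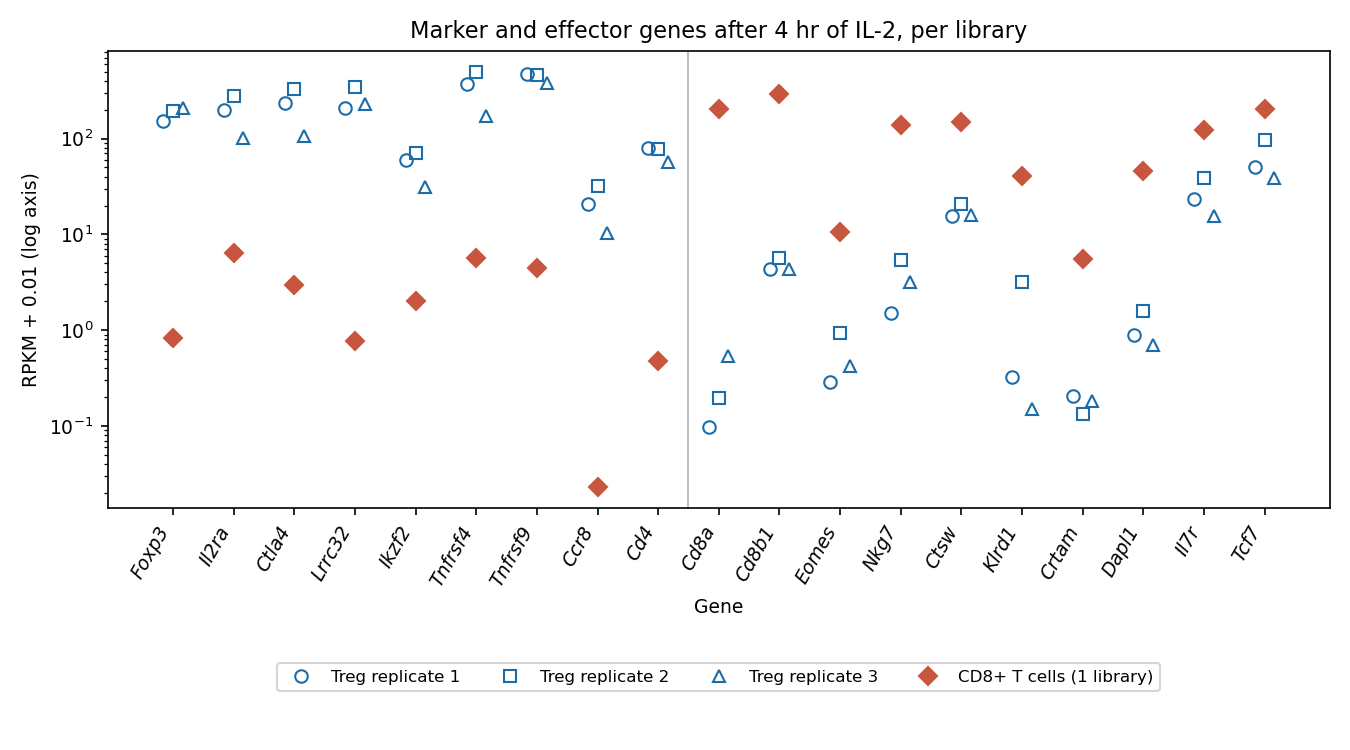
RPKM of 19 marker genes in the 4 libraries given IL-2 for 4 hr, on a log axis, with each Treg library and the CD8+ library as a separate point. Foxp3 and Lrrc32 sit at 151 RPKM or more in every Treg library and under 1 RPKM in CD8+ T cells, and Cd8a and Nkg7 sit at 203 and 139 RPKM in CD8+ T cells and at no more than 5.45 RPKM in Tregs.

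Reads on genes numbered 26576384, 63903764 and 20201392 in Treg replicates 1, 2 and 3 and 40936746 in the CD8+ library. The Treg libraries differed from each other in ways the labels do not give. Replicate 2 held Xist, the RNA of the inactive X chromosome, at 44.6 RPKM and almost no Ddx3y, a gene of the Y chromosome (0.00728 RPKM), while replicates 1 and 3 and the CD8+ library held Ddx3y at 22.9, 24.3 and 22.9 RPKM. Y-linked RNA in these 3 libraries goes against female mice as their source. Replicate 3 held RNA of red blood cells and neutrophils, with 46.8 RPKM of the globin gene Hbb-bs and 35.0 RPKM of S100a9, against at most 2.25 and 1.35 RPKM in the other 3 libraries. Across tested genes, Treg libraries correlated with each other at Pearson r of 0.95, 0.944 and 0.955 (log2 CPM), and with the CD8+ library at 0.916, 0.952 and 0.921 for replicates 1, 2 and 3. Replicate 2 was thus as close to the CD8+ library as to the other Treg libraries by this measure, which is over genes and not over independent samples.

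Treg and CD8+ T cell RNA differed at 988 of 16399 tested genes (6.02%) at an adjusted p-value under 0.05, of which 648 (3.95%) were higher in Tregs and 340 (2.07%) lower. An absolute log2 fold change above 1 was reached by 972 (5.93%). Of the higher genes 514 (3.13% of those tested) passed a log2 fold change of 2, and of the lower genes 175 (1.07%) passed -2. The median log2 fold change was 0.16 over all tested genes and -0.01 over the 10446 of them with a mean of at least 1 RPKM. The fit took its spread from all 15 Treg libraries and assumed that the lone CD8+ library varies like them, since an exact permutation test of 3 libraries against 1 cannot go below p = 0.25. Taking the replicate number of the Tregs as a block raised the count to 1707 genes, which included all 988. The block takes differences between Treg replicates out of the error, while the lone CD8+ library lies outside it. Of 5 sex-linked genes, the block fit called 1 higher and 4 lower in Tregs, and the fit without it called 0. A pass with the block alone therefore carries little weight. Without Treg replicate 1, 2 or 3 given IL-2 for 4 hr, the count was 788, 867 and 857, and without that replicate in all Treg groups 1786, 413 and 365. All 3 Treg libraries were above the CD8+ library in RPKM for each of the 648 genes, and below it for each of the 340, where 33% and 19.9% of all tested genes had the libraries in that order. In the unstimulated cells 639 of the 648 and 337 of the 340 genes differed in the same direction, and 588 genes in all passed the threshold there too. Of all tested genes 780 (4.76%) passed the threshold in unstimulated cells. The share of all tested genes that kept their direction was not counted. Over the 5 groups, all 15 Treg libraries were above all 5 CD8+ libraries for 547 of the 648 genes and below them for 214 of the 340, where 6.84% and 2.68% of all tested genes had the libraries in that order.

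**Figure D2:**
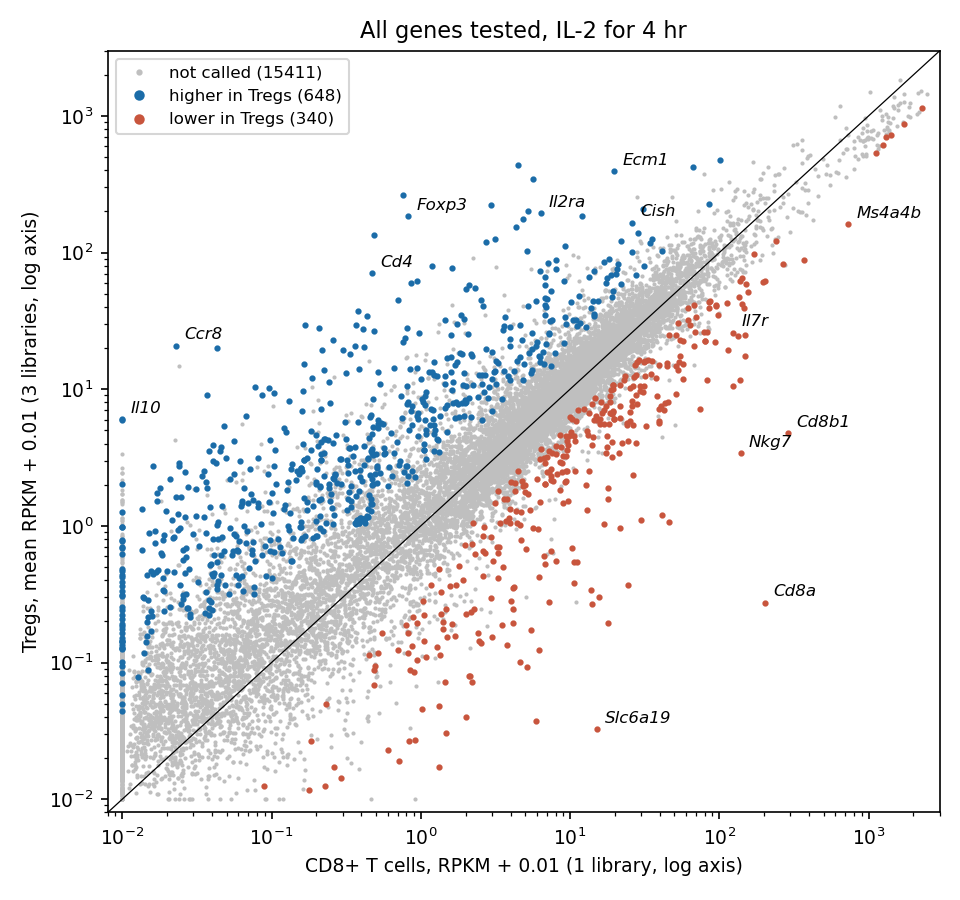
Mean RPKM of the 3 Treg libraries against RPKM of the CD8+ library, both given IL-2 for 4 hr, 1 point per tested gene on log axes. The 648 genes called higher in Tregs and the 340 called lower lie to either side of the line of equal level, and Cd8a and Foxp3 lie far from it.

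Large differences were also counted without a model. Among 10450 genes with a mean of at least 1 RPKM, the log2 ratio of RPKM + 1 to the CD8+ library passed 2 in size and kept its sign in all 3 Treg libraries for 193 genes, 148 higher and 45 lower in Tregs. Taken 1 Treg library at a time, 311, 333 and 307 genes were higher and 120, 56 and 170 lower. Pairs of Treg replicates, which measure the spread between replicates by the same count, differed at 130, 140 and 155 genes.

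Genes known for Treg identity and suppression were higher in Tregs nearly throughout. Members of this list and of those below were chosen with earlier results of these data known, so their shares are descriptions only. Of 35 tested members of this list, 29 (82.9%, against 3.95% of all tested genes) passed the threshold as higher and 0 as lower (32 and 0 at an unadjusted p under 0.05, and 30 and 0 called by DESeq2), with a median log2 fold change of 4.76. All 3 Treg libraries were above the CD8+ library for 33 members, an order that 33% of all tested genes had. Il2ra, the CD25 chain, had 197, 282 and 101 RPKM in Tregs and 6.34 RPKM in CD8+ T cells. Ctla4, which removes costimulatory ligands from other cells, had 235, 329 and 106 RPKM against 2.92. Lrrc32 (GARP), which holds latent TGF-beta on the Treg surface, had 208, 349.6 and 229 RPKM against 0.754. All 3 genes were higher in every Treg library, with mean levels 30.5-fold, 76.5-fold and 348-fold those of the CD8+ library, and Treg replicate 3 had the lowest Il2ra and Ctla4. Their log2 fold changes were 4.76 (SE 0.51, adjusted p = 0.000102), 6.09 (SE 0.81, adjusted p = 0.000428) and 8.29 (SE 0.71, adjusted p = 1.4e-05). Itgb8, the integrin chain that activates latent TGF-beta, was at 15.5, 25.6 and 19.3 RPKM against 0.0334 RPKM (7 reads). Among transcription factors of the list, Ikzf2 (Helios) was at 60.4, 71.3 and 30.99 RPKM against 2.01, and Ikzf4 (Eos) at 43.9, 58.0 and 38.1 RPKM against 6.82. The 2 Ikaros family genes thus differed in how far apart the cell types were, with log2 fold changes of 4.60 (SE 0.50, adjusted p = 0.000102) and 2.63 (SE 0.28, adjusted p = 0.000102).

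Receptors of inhibitory and costimulatory signals followed the same direction. Tigit, an inhibitory receptor, had 161.9, 128 and 66.8 RPKM in Tregs and 2.73 in CD8+ T cells (log2 fold change 5.30, SE 1.07, adjusted p = 0.00809). Icos, a costimulatory receptor, had 141, 144 and 52.2 RPKM against 9.21 (3.45, SE 0.80, adjusted p = 0.0191), and the inhibitory receptor Lag3 was low in both cell types, at 2.06, 3.50 and 4.58 RPKM against 0.464. Folr4, the folate receptor 4 that marks natural Tregs, had 169.6, 206 and 90.1 RPKM against 4.34, and Nrp1 (neuropilin 1) had 26.4, 20.4 and 19.4 RPKM against 0.748. Suppressive cytokines were expressed at lower levels than these receptors but were also higher in Tregs. Il10 had 4.73, 8.52 and 4.75 RPKM in Tregs and no read in the CD8+ library, at least 177-fold higher against a floor of 3 reads there (adjusted p = 0.000358). Ebi3, the beta subunit of IL-35, had 3.001, 3.61 and 0.905 RPKM against 2 reads in the CD8+ library, a ratio of 115 (95% counting interval 31.8 to 955). The other IL-35 subunit, Il12a, was at or near 0 in all 4 libraries, with at most 0.0697 RPKM. Members of the list that did not pass were Itgae, Nt5e, Fgl2, Tgfb1, Klrg1 and Il12a. Nt5e (CD73), which makes adenosine together with Entpd1 (CD39), was at 100.2, 91.6 and 47.8 RPKM in Tregs and 37.6 in CD8+ T cells (log2 fold change 0.94, 95% interval -0.11 to 1.997, adjusted p = 0.35), whereas Entpd1 passed at 7.93, 5.28 and 3.57 RPKM against 0.552. Itgae, the integrin chain CD103, was highest in the CD8+ library (10.8 RPKM) and in Treg replicate 1 (9.99 RPKM), and Tgfb1 had 76.8, 116 and 73.9 RPKM against 43.9 (0.87, adjusted p = 0.248). With the replicate block Klrg1, an inhibitory receptor of differentiated T cells, passed at a log2 fold change of 2.66 (adjusted p = 6.1e-05, against 0.141 without the block).

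The 15 genes with the highest log2 fold changes among called genes with a mean of at least 1 RPKM held Foxp3, Lrrc32, Itgb8, Il10, Areg, Ccr8 and Penk, all 7 Treg genes or receptors of the lists used here. Areg, amphiregulin, a growth factor that Tregs release in tissue repair, had 4.54, 9.30 and 4.01 RPKM and no read in the CD8+ library, at least 161.1-fold higher. Penk, which encodes the enkephalin precursor, had 22.3, 30.7 and 36.1 RPKM against 0.157 (log2 fold change 7.43, SE 1.06, adjusted p = 0.000733). Ccr8, a chemokine receptor of tissue Tregs, had 20.5, 31.8 and 10.3 RPKM in Tregs and 1 read in the CD8+ library, a ratio of 1914 (95% counting interval 343 to 75594, which covers counting error only). Dusp4, a phosphatase of MAP kinases, was the most abundant of the 15 after Foxp3 and Lrrc32, with 92.6, 165.2 and 147 RPKM against 0.474 (8.01, SE 1.14, adjusted p = 0.000685). Noxa1, an activator of NADPH oxidases, had 2.17, 2.52 and 1.38 RPKM and no read in the CD8+ library, at least 76.3-fold higher. The other 6, Ntn4, Fam160a1, Atcay, Cpe, Kcnj15 and Glt28d2, were expressed at no more than 13.3 RPKM in any Treg library. Of the 15 genes, 14 had all 15 Treg libraries above all 5 CD8+ libraries, Kcnj15 being the exception, where 6.84% of all tested genes had that order. The 15 genes were picked from these same data by fold change, so this is a description only.

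Of the subunits and enzymes of IL-2 signaling, the receptor alpha chain set the cell types apart far more than the shared chains. Of 20 tested genes of the IL-2 receptor and JAK-STAT list, 3 (15%, against 3.95% of all tested genes) were called higher in Tregs, Il2ra, Cish and Socs2, and 0 lower (7 and 1 at an unadjusted p under 0.05, and 5 and 0 called by DESeq2), with a median log2 fold change of 0.52. Il2rb had 359.8, 437 and 243 RPKM in Tregs and 186 RPKM in CD8+ T cells, above it in all 3 libraries, but its log2 fold change of 0.75 (95% interval 0.06 to 1.44) missed the threshold (adjusted p = 0.235). Il2rg had 134, 202 and 62.7 RPKM against 207 RPKM, below it in all 3 Treg libraries (-0.81, -1.62 to -0.01, adjusted p = 0.274). In each Treg library Il2ra lay between Il2rg and Il2rb in RPKM, and in CD8+ T cells Il2ra stood at 6.34 RPKM beside 186 for Il2rb and 207 for Il2rg. Stat5a had 74.4, 110.2 and 95.2 RPKM against 11.3 RPKM, and Stat5b had 103, 132 and 129 RPKM against 29.4 RPKM. Both STAT5 genes were higher in all 3 Treg libraries, with log2 fold changes of 2.91 (SE 0.90, adjusted p = 0.0753) and 1.91 (SE 0.59, adjusted p = 0.0747) that missed the threshold. Both passed with the replicate block (2.94, adjusted p = 0.0491, and 1.93, adjusted p = 0.0460), with DESeq2 (adjusted p = 0.00126 and 0.00486) and without replicate 1 in all Treg groups (0.000249 and 0.00202). Neither passed without replicate 2 or 3 in all Treg groups. Of 15 alternative count fits, Stat5a passed in 6 and Stat5b in 5. Jak1 was at 93.7, 133 and 111 RPKM in Tregs and 149.6 RPKM in CD8+ T cells (-0.54, adjusted p = 0.437), and Jak3 at 12.9, 19.8 and 16.1 RPKM and 10.3 RPKM (0.53, adjusted p = 0.579).

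Negative feedback genes of the pathway differed among themselves. Cish, a STAT5-induced inhibitor of cytokine receptors, had 138, 224 and 135 RPKM in Tregs and 26.1 RPKM in CD8+ T cells, and its gene lies at chr9:107296659-107302784 on the plus strand. Socs2 had 44.3, 47.2 and 30.2 RPKM in Tregs and 2.61 RPKM in CD8+ T cells. Both were higher in every Treg library, with log2 fold changes of 2.52 (SE 0.31, adjusted p = 0.000238) and 3.81 (SE 0.49, adjusted p = 0.000322). Socs1, which binds JAK kinases, had 86.1, 102 and 56.3 RPKM against 42.3 (0.80, 95% interval -0.36 to 1.95, adjusted p = 0.484). Socs3 had 53.4, 67.5 and 65.5 RPKM against 39.8 (0.51, -0.24 to 1.26, adjusted p = 0.487). Socs1 and Socs3 were thus above the CD8+ level in all 3 Treg libraries without passing the threshold.

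Promoter windows of 3 genes of the STAT5 and IL-2 target list, and of Foxp3, which is not on that list, are shown as a description of sequence. Each window shown holds a match to the STAT5 motif. STAT5 binds palindromes of the form TTCNNNGAA, which reads the same on both strands. In windows from 250 bases before to 50 bases after the RefSeq start sites of GRCm38.p6, this motif was found for 2582 of 27025 genes (9.55%), and 146 (0.54%) had at least 2 matches. Of the genes of the STAT5 and IL-2 target list, 37 had a window, 8 of them (21.6%) held a match, and 3 (8.11%) held at least 2, with Cish, Lta, Il7r, Socs3, Ifng, Gzmb, Txnrd1 and Bcl6 the 8. Of these 8, Cish and Il7r were called in the comparison and the others were not. A match is a description of the letters and no evidence of binding. The windows of Cish (chr9:107296409-107296708, plus strand), Lta (chr17:35205302-35205601, minus strand) and Il7r (chr15:9529827-9530126, minus strand) follow with that of Foxp3 (chrX:7580233-7580532, plus strand, the second of its 2 windows, the first of which, at the gene's start, held no match), each 5′ to 3′ on the strand of the gene, with matches in capitals.
Cish: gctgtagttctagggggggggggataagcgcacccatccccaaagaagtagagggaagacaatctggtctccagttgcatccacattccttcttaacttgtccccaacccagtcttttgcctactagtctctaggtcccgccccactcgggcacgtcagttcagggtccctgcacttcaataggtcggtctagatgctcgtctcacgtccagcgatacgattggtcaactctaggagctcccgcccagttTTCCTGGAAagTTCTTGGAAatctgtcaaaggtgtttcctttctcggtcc
Lta: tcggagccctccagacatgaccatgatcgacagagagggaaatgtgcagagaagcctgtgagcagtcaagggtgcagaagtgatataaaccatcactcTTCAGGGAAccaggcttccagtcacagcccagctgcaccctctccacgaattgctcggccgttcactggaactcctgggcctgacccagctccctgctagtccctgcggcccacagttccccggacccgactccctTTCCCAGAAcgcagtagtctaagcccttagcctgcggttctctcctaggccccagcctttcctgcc
Il7r: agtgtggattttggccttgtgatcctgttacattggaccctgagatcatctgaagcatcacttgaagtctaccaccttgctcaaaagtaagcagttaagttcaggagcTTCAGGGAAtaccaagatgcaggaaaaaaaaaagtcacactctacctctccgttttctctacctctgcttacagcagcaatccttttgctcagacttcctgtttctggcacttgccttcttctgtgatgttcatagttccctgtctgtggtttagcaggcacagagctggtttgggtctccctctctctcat
Foxp3: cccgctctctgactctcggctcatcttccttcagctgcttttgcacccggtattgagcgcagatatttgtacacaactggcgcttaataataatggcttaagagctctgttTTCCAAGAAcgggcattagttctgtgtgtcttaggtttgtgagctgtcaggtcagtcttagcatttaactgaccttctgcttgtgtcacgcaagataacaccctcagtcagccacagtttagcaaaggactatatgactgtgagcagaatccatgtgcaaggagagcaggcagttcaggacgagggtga
These genes did not share a direction. Cish and Foxp3 were higher in Tregs, Il7r was lower and Lta did not pass the threshold.

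The list of STAT5 and IL-2 target genes, also chosen with earlier results of these data known, split between the cell types. Of 44 tested genes, 11 (25%, against 3.95% of all tested genes) were called higher in Tregs and 4 (9.09%, against 2.07%) lower, with a median log2 fold change of 0.63, and 29 did not pass. The higher genes were Cish, Socs2, Il2ra, Nfil3, Bhlhe40, Dusp5, Gadd45b, Ecm1, Lama5, Gpsm2 and Prdm1, and the lower were Bcl2, Pim2, Prf1 and Il7r. Ecm1, an extracellular matrix protein, had 263, 530.1 and 389.7 RPKM in Tregs and 19.7 RPKM in CD8+ T cells. Nfil3, a basic leucine zipper repressor, had 45.4, 61.4 and 57.8 RPKM against 2.31. Lama5, a laminin chain, had 6.52, 12.9 and 16.5 RPKM against 0.178. These 3 were called, with log2 fold changes of 4.17 (SE 0.49, adjusted p = 0.000173), 4.44 (SE 0.71, adjusted p = 0.00178) and 5.96 (SE 0.69, adjusted p = 0.000163). Gadd45b, a stress response gene, was at 85.2, 288 and 236 RPKM against 5.22, with Treg replicate 1 well below the other 2 (adjusted p = 0.0223). It did not pass without replicate 2 (0.0521) or 3 (0.136) in all Treg groups.

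Among survival genes of the target list, Bcl2, Il7r and Pim2 were lower in Tregs. Bcl2, which blocks apoptosis, had 31.7, 46.0 and 27.4 RPKM in Tregs and 98.5 RPKM in CD8+ T cells. Il7r, the IL-7 receptor alpha chain that naive and memory T cells need to persist, had 23.5, 38.7 and 15.6 RPKM in Tregs and 123 RPKM in CD8+ T cells. Pim2, a kinase of growth and survival, had 11.9, 33.1 and 21.9 RPKM against 93.9. All 3 were lower in every Treg library, with log2 fold changes of -1.64 (SE 0.41, adjusted p = 0.0288), -2.41 (SE 0.36, adjusted p = 0.00105) and -2.22 (SE 0.48, adjusted p = 0.0115). Bcl2 no longer passed without Treg replicate 1 (adjusted p = 0.0542) or 3 (0.0771). Bcl2l1, which encodes Bcl-xL, had 21.7, 49.8 and 28.6 RPKM against 10.8 and missed the threshold (adjusted p = 0.0874), but passed with the replicate block (1.43, adjusted p = 0.037) and with DESeq2 (0.0134). Pim1 had 225, 345 and 300.4 RPKM against 102 (1.37, adjusted p = 0.0776), the opposite order to Pim2, and Mcl1 had 157, 206 and 196 RPKM against 118.

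Growth and effector cytokine genes of the target list did not pass the threshold at 4 hr. Myc, a driver of growth, had 32.95, 92.3 and 82.0 RPKM in Tregs and 70.0 RPKM in CD8+ T cells, with the CD8+ library between the Treg libraries (-0.16, 95% interval -1.54 to 1.22, adjusted p = 0.914). Lta, lymphotoxin alpha, had 50.5, 68.9 and 19.9 RPKM and 43.4 RPKM (-0.07, -1.53 to 1.38, adjusted p = 0.966). Tnf had 10.46, 20.5 and 11.5 RPKM and 20.8 RPKM (-0.71, -1.75 to 0.33, adjusted p = 0.489), with Treg replicate 2 at nearly the CD8+ level. The intervals of these 3 genes reach from below 0 to above it, so a difference of either sign was not detectable with these libraries. Cdk6, a cell cycle kinase, had 12.1, 16.7 and 13.3 RPKM against 25.2 RPKM, lower in all 3 Treg libraries (-0.98, -1.69 to -0.27, adjusted p = 0.108). Gzmb, granzyme B, had 22.1, 22.8 and 6.13 RPKM against 31.7 RPKM (-1.06, adjusted p = 0.529), and Ifng, interferon gamma, was low in all 4 libraries, at 0.298, 2.47 and 0.1003 RPKM and 1.70 RPKM. Ramp3, a receptor activity-modifying protein, had 70.4, 112 and 88.8 RPKM against 2.21, yet its log2 fold change of 5.22 carried an SE of 2.199 (adjusted p = 0.221), and unstimulated Treg replicate 1 held it at 219 RPKM beside 2.91 and 2.25 RPKM in replicates 2 and 3.

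**Figure D3:**
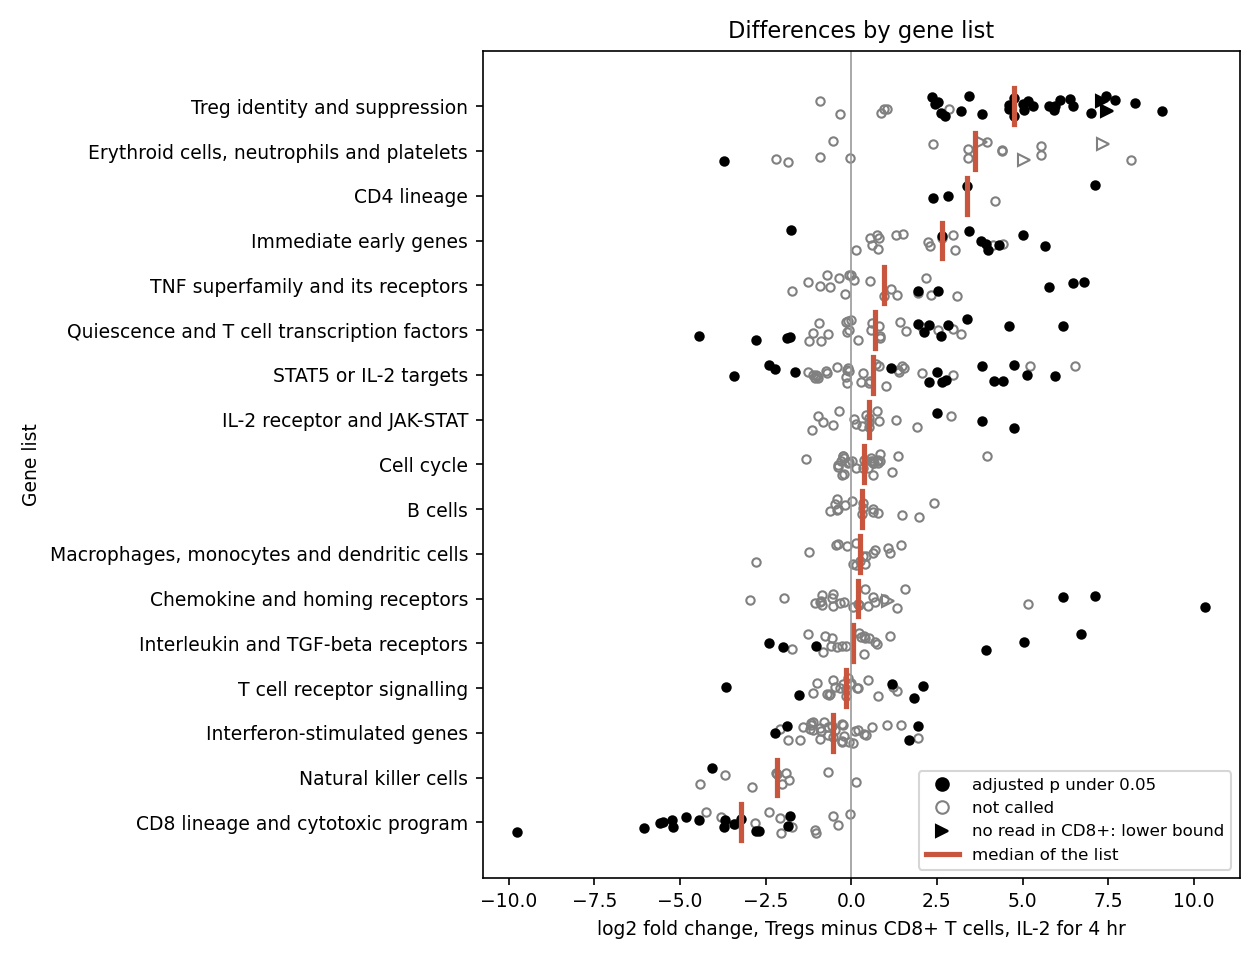
Log2 fold change of Tregs over CD8+ T cells given IL-2 for 4 hr for each tested gene of the gene lists, with called genes marked, the list's median as a bar, and genes without a read in the CD8+ library as triangles at their lower bound. The Treg list has its median at 4.76 and the CD8 and cytotoxic list at -3.23, and the other immune lists spread to both sides of 0.

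Genes of the CD8 lineage and the cytotoxic program were lower in Tregs or did not pass. Of 29 tested genes, 0 were called higher in Tregs and 16 (55.2%, against 2.07% of all tested genes) lower (0 and 22 at an unadjusted p under 0.05, and 0 and 18 called by DESeq2), with a median log2 fold change of -3.23. All 3 Treg libraries were below the CD8+ library for 26 of them, an order that 19.9% of all tested genes had. Nkg7, a protein of cytotoxic granules, had 1.48, 5.45 and 3.20 RPKM in Tregs and 139 RPKM in CD8+ T cells. Eomes, a T-box factor of memory and cytotoxic cells, had 0.279, 0.919 and 0.415 RPKM against 10.6. Ctsw (cathepsin W) had 15.5, 20.6 and 16.1 RPKM against 148. These were higher in the CD8+ library than in any Treg library, by 41.1-fold, 19.7-fold and 8.503-fold over the Treg mean, with log2 fold changes of -5.51 (SE 0.81, adjusted p = 0.000914), -4.45 (SE 0.64, adjusted p = 0.000775) and -3.23 (SE 0.54, adjusted p = 0.0023). Tbx21 (T-bet) had 0.846, 2.23 and 1.32 RPKM against 8.99 (adjusted p = 0.000895), and Runx3, which sets the CD8 fate, 22.8, 18.2 and 11.1 RPKM against 54.3 (adjusted p = 0.0149). The chemokine gene Ccl5 had 10.48, 19.6 and 4.84 RPKM against 137 (-3.73, SE 0.53, adjusted p = 0.000685), and Crtam, an adhesion receptor of cytotoxic lymphocytes, 0.197, 0.122 and 0.172 RPKM against 5.47 (-5.20, SE 0.51, adjusted p = 5.61e-05).

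Among granule enzymes, Gzmk and Gzmm were called lower in Tregs, at 0.267, 0.541 and 0 RPKM against 7.25 and 0.625, 0.543 and 1.15 RPKM against 4.65. Prf1 (perforin) had 0.392, 3.91 and 1.31 RPKM against 17.8 and passed at an adjusted p of 0.0358, but not without Treg replicate 1 (0.0596) or 3 (0.103). Gzma had 0.434, 13.5 and 5.07 RPKM against 38.8 and missed the threshold (-2.80, adjusted p = 0.384), but passed with the replicate block (-3.68, adjusted p = 9.68e-06) and without replicate 1 in all Treg groups (0.0101). It passed in 3 of 15 alternative count fits. Treg replicate 2 was the highest Treg library for Prf1, Gzma and Klrd1, an NK receptor chain at 0.318, 3.14 and 0.140 RPKM against 41.2. Genes of natural killer cells mostly had the same direction, though few passed. Of 11 tested NK genes 9 had all 3 Treg libraries below the CD8+ library, an order that 19.9% of all tested genes had. In edgeR 1 (9.09%, against 2.07% of all tested genes) was called lower, Klra7 (adjusted p = 0.0325, and 0.0869 or 0.0943 without Treg replicate 1 or 3). With the replicate block 9 were called lower. The list summed to 3.13, 16.5 and 5.15 RPKM in Tregs against 33.7 RPKM in CD8+ T cells. Ncr1, which defines NK cells, had 0.174, 2.202 and 0.807 RPKM in Tregs and 3.54 RPKM in CD8+ T cells, so Treg replicate 2 was again the highest of the 3. The part of NK cell RNA in these differences was not tested, and in bulk RNA fewer cells of a type and less RNA per cell cannot be told apart.

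The 15 genes with the lowest log2 fold changes began with Cd8a, at -9.76, and Slc6a19, at -9.67 (SE 0.73, adjusted p = 3.84e-06). Slc6a19, a transporter of neutral amino acids best known from gut and kidney, had 0, 0.0185 and 0.0496 RPKM in Tregs and 15.1 RPKM in CD8+ T cells. Syt6, a synaptotagmin, had 0.0193, 0.00769 and 0.0551 RPKM against 5.91, and Dapl1, a gene of naive and memory CD8+ T cells, 0.887, 1.59 and 0.687 RPKM against 46.2. Each was far lower in all 3 Treg libraries than in the CD8+ library. Lcn4, a lipocalin, had 0.383, 0.655 and 0.0391 RPKM against 24.5. Among the rest were Cd8b1, Tmevpg1, Haao, Klra23, Klra13-ps, Ggt1, Fcgrt, Nkg7 and Klrd1, and Klra23 and Klra13-ps belong to a family of near-identical genes whose reads the counting could split. All 15 had the 15 Treg libraries below the 5 CD8+ libraries, where 2.68% of all tested genes had that order. They too were picked from these same data by fold change, so this is a description only. Calls of Haao, Fcgrt, Klra23 and Klra13-ps did not survive the removal of every Treg library in turn, with adjusted p-values of 0.0625 to 0.0995 without the library that ended the call.

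The most abundant called genes past a log2 fold change of 2 in Tregs were Cd2 (473 RPKM on average), Tnfrsf9 (439 RPKM on average), Tnfrsf18 (419.8 RPKM on average), Ecm1 (394 RPKM on average) and Tnfrsf4 (348 RPKM on average). Cd2, an adhesion receptor, was at 101 RPKM in CD8+ T cells (log2 fold change 2.08, SE 0.46, adjusted p = 0.0134), so it was abundant in both cell types. In CD8+ T cells they were, beside Cd8a, Cd8b1 and Ctsw, Ms4a4b, a membrane protein of T cells, at 726 RPKM against 166.8, 231 and 84.8 RPKM in Tregs, and Thy1, a surface protein of T cells, at 369 RPKM against 91.0, 92.8 and 81.4. Of the 38 leading and most abundant genes, 14 overlap another annotated gene, and whether strand was used in counting is not stated.

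In edgeR without the block, receptors of the TNF family were higher in Tregs where they passed, while their ligands did not pass. Of 23 tested genes of the TNF superfamily and its receptors, 5 (21.7%, against 3.95% of all tested genes) were called higher and 0 lower (10 and 2 at an unadjusted p under 0.05), with a median log2 fold change of 0.96. Both DESeq2 and the replicate block called 9 higher and 1 lower. Tnfrsf9 (4-1BB) had 477, 457 and 385 RPKM in Tregs and 4.49 RPKM in CD8+ T cells. Tnfrsf4 (OX40) had 368, 501 and 174 RPKM against 5.64, and Tnfrsf18 (GITR) 417, 441 and 402 RPKM against 66.8. These costimulatory receptors differed by log2 fold changes of 6.48 (SE 1.28, adjusted p = 0.00714), 5.78 (SE 0.91, adjusted p = 0.00152) and 2.52 (SE 0.58, adjusted p = 0.0174), GITR being well expressed in CD8+ T cells too. Without replicate 3 in all Treg groups Tnfrsf4 passed (adjusted p = 0.0101), but Tnfrsf9 (0.0588) and Tnfrsf18 (0.078) did not. Tnfrsf18 also did not pass without replicate 2 in all Treg groups (0.0945). Tnfrsf25 (DR3) passed at 27.8, 33.8 and 35.3 RPKM against 7.62, and Tnfrsf8 (CD30) at 5.19, 2.94 and 2.42 RPKM against 3 reads, a ratio of 123 (95% counting interval 42.1 to 599). Ltb, lymphotoxin beta, had 222, 251.03 and 291 RPKM in Tregs and 266 in CD8+ T cells, and Cd40lg, which activates B cells and dendritic cells, 2.17, 14.2 and 3.15 RPKM and 0.307 RPKM, which missed the threshold (adjusted p = 0.124) but passed with the replicate block (3.84, adjusted p = 0.0145) and with DESeq2 (0.0013).

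Cytokine and chemokine receptors pointed both ways. Of 24 interleukin and TGF-beta receptor genes, 3 (12.5%, against 3.95% of all tested genes) were called higher in Tregs, Il1r2, Il1rl1 and Il9r, and 3 (12.5%, against 2.07%) lower, Il7r, Il18rap and Il10rb, with a median log2 fold change of 0.04. The replicate block called 3 higher and 5 lower. Il1r2, a decoy receptor for IL-1, had 12.3, 11.03 and 4.05 RPKM in Tregs and 0.0769 RPKM in CD8+ T cells (6.72, SE 1.13, adjusted p = 0.00246). Il1rl1 (ST2), the IL-33 receptor, had 16.9, 18.9 and 6.45 RPKM against 0.378 (adjusted p = 0.0439), a call lost without Treg replicate 1 (0.0716) or 2 (0.0676). Il18rap, a chain of the IL-18 receptor, had 3.51, 4.74 and 3.35 RPKM against 14.0 (-1.998, SE 0.37, adjusted p = 0.00464). Il10rb was at 28.9, 28.8 and 17.1 RPKM against 46.1, at the edge of the threshold (adjusted p = 0.0498) and past it without Treg replicate 2 (0.0733) or 3 (0.098). Of 27 chemokine and homing receptors, 3 (11.1%, against 3.95%) were called higher, Ccr4, Ccr6 and Ccr8, and 0 lower (4 and 2 at an unadjusted p under 0.05), with a median of 0.19. DESeq2 called 4 higher and 1 lower, and the replicate block 4 and 2. Ccr4, a receptor for skin homing, had 37.1, 33.4 and 17.2 RPKM against 0.360 (6.20, SE 0.76, adjusted p = 0.000265), and Ccr6 13.7, 12.01 and 5.55 RPKM against 0.0672 (7.11, SE 0.76, adjusted p = 0.000102). Treg replicate 3 was the lowest Treg library for all 3. The lymph node homing receptor Ccr7 did not pass, at 143, 316 and 144 RPKM against 114.

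Transcription factors of T cell fate divided as the lineages do. Of the 5 CD4 lineage genes 4 (80.0%, against 3.95% of all tested genes) were called higher in Tregs. Zbtb7b (ThPOK), which sets the CD4 fate, had 11.5, 15.6 and 13.1 RPKM in Tregs and 1.18 RPKM in CD8+ T cells. Gata3 had 34.4, 58.3 and 30.2 RPKM against 5.23, and Maf, a factor of IL-10 producing T cells, 43.9, 34.5 and 24.3 RPKM against 0.426. They were higher in every Treg library, with log2 fold changes of 3.37 (SE 0.72, adjusted p = 0.0115), 2.81 (SE 0.41, adjusted p = 0.000828) and 6.19 (SE 0.65, adjusted p = 9.01e-05). Zbtb7b and Tox, another of the 4 called CD4 lineage genes, did not pass without replicate 2 or 3 in all Treg groups. Cd4, Gata3 and Maf passed without either. Tox also did not pass without Treg replicate 1 or 2 given IL-2 for 4 hr. Over the 34 genes of the quiescence and T cell transcription factor list, 8 (23.5%, against 3.95% of all tested genes) were called higher and 4 (11.8%, against 2.07%) lower, with a median of 0.70. With the replicate block 8 were higher and 7 lower. The lower ones were Eomes, Tbx21, Runx3 and Tcf7. Tcf7 (TCF-1), a factor of naive and memory T cells, had 50.4, 95.9 and 38.9 RPKM against 201 (-1.87, adjusted p = 0.0288), and did not pass without Treg replicate 1 (0.0632) or 3 (0.083). Its relative Lef1 had 39.8, 56.1 and 42.3 RPKM against 80.4 and missed the threshold (adjusted p = 0.158), but passed with the replicate block (-0.94, adjusted p = 0.0283) and in the additive fit over all conditions. Klf2 and Bach2, genes of quiescent T cells, did not pass, at 130.4, 199 and 80.3 RPKM against 129 and 18.2, 30.2 and 25.6 RPKM against 23.5.

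Immediate early genes, which respond to signals within minutes to hours, were higher in Tregs where they passed, with a single exception. Of 24 tested genes 8 (33.3%, against 3.95% of all tested genes) were called higher and 1, Ier3, lower (4.17%, against 2.07%), with a median log2 fold change of 2.65, and 21 had all 3 Treg libraries above the CD8+ library, an order that 33% of all tested genes had. Fos had 10.7, 52.3 and 33.6 RPKM in Tregs and 1.44 RPKM in CD8+ T cells. Junb had 134, 243 and 253 RPKM against 30.8, and Tnfaip3 (A20), an inhibitor of NF-kappaB, 88.3, 259 and 205 RPKM against 12.1. All 3 were lowest among Tregs in replicate 1 yet above the CD8+ library there, with log2 fold changes of 4.32 (SE 1.07, adjusted p = 0.0263), 2.64 (SE 0.53, adjusted p = 0.00804) and 3.78 (SE 0.87, adjusted p = 0.0172). Without replicate 3 in all Treg groups Fos, Junb and Tnfaip3 did not pass (adjusted p = 0.141, 0.0762 and 0.129). Without replicate 2 in all Treg groups Junb passed (0.0378), but Fos (0.082) and Tnfaip3 (0.0514) did not. Nr4a1, a nuclear receptor induced by antigen receptor signals, was at 51.4, 329 and 146 RPKM against 4.79 (adjusted p = 0.0499), and Jun at 52.3, 93.6 and 106 RPKM against 7.14 (adjusted p = 0.038). Neither passed without Treg replicate 2 (0.0734 and 0.0562) or 3 (0.0758 and 0.072), Atf3 did not pass without replicate 3 (0.0566), and Ier3 did not pass without replicate 1 (0.106) or 3 (0.0948). Nr4a3 had 23.7, 147 and 63.9 RPKM against 3.17 and did not pass (4.44, SE 1.995, adjusted p = 0.257). The list summed to 968, 2392 and 1802 RPKM in Tregs and 322 RPKM in CD8+ T cells at 4 hr. In unstimulated cells it summed to 3528, 2588 and 3806 RPKM in Tregs and 1501.5 RPKM in CD8+ T cells. The Treg sums were thus above the CD8+ sum without cytokine too, and each sum was lower at 4 hr than in the same-numbered unstimulated library. Tregs were sorted and CD8+ T cells were not, which cannot be told apart from cell type here.

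T cell receptor signaling genes mostly did not pass. Of 25 tested genes 3 (12%, against 3.95% of all tested genes) were called higher in Tregs, Cd2, Cd5 and Cd6, and 2 (8.0%, against 2.07%) lower, Themis and Prkcq, with a median log2 fold change of -0.15. Themis, which tunes signals during T cell selection, had 2.12, 3.81 and 1.09 RPKM in Tregs and 26.3 RPKM in CD8+ T cells (-3.66, SE 0.67, adjusted p = 0.00464). Cd5, an inhibitor of receptor signals, had 78.2, 106 and 62.9 RPKM against 21.0 (1.82, SE 0.29, adjusted p = 0.00178). The receptor chain Cd3e, by contrast, was at 119, 115 and 84.4 RPKM against 149 (-0.63, 95% interval -1.41 to 0.15, adjusted p = 0.41).

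Of 29 cell cycle genes, edgeR called 0 in either direction, with 4 higher and 1 lower at an unadjusted p under 0.05 and a median log2 fold change of 0.38. DESeq2 called 1 higher and 1 lower, and the replicate block 3 and 1. Mki67, a marker of dividing cells, had 6.92, 14.7 and 6.17 RPKM in Tregs and 5.28 RPKM in CD8+ T cells (0.64, 95% interval -0.64 to 1.92, adjusted p = 0.589). Of 37 interferon-stimulated genes 2 (5.41%, against 3.95% of all tested genes) were called higher, Isg15 and Gbp3, and 2 (5.41%, against 2.07%) lower, Oas3 and Ifi47, with a median of -0.54. These shares are near those of all tested genes. Ifi47, an interferon-inducible GTPase, had 39.6, 114 and 29.6 RPKM against 196, and each of the 4 calls was lost without at least 1 of the Treg libraries, with adjusted p-values of 0.0515 to 0.0824 where lost. With the replicate block 7 genes of the list were called lower.

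Markers of cells outside the 2 populations were low. B cell genes summed to 30.2, 45.4 and 84.3 RPKM in Tregs and 24.6 RPKM in CD8+ T cells, with 0 of 16 called by edgeR (1 at an unadjusted p under 0.05, and 1 by DESeq2), and Cd74, which T cells also express, gave 24.3, 32.2 and 57.2 RPKM of the Treg sums. Genes of macrophages, monocytes and dendritic cells summed to 62.6, 101 and 116 RPKM in Tregs and 103 RPKM in CD8+ T cells, with 0 of 17 called by edgeR or DESeq2 (1 at an unadjusted p under 0.05) and Csf1r at 0.350, 2.21 and 1.67 RPKM against 0.789. Genes of erythroid cells, neutrophils and platelets summed to 12.4, 14.0 and 266 RPKM in Tregs and 11.6 RPKM in CD8+ T cells, the high value being replicate 3, and 1 of 18 genes was called, Ppbp, lower in Tregs (adjusted p = 0.0388, and 0.0915 or 0.063 without Treg replicate 1 or 3). With the replicate block 1 B cell gene was called higher, 1 myeloid gene lower, and 4 genes of the last list higher and 2 lower.

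The difference between the cell types was then set against that in unstimulated cells, which asks whether 4 hr of IL-2 moved Tregs and CD8+ T cells differently. At an adjusted p under 0.05, 0 of 16399 genes (0%) changed their difference in edgeR, and 315 (1.92%) had an unadjusted p under 0.05. DESeq2 called 17 genes. Since each CD8+ group had 1 library, this test has little precision. Ikzf4 had the lowest adjusted p-value (0.0832), with 21.9, 23.1 and 19.99 RPKM in unstimulated Tregs and 0.578 RPKM in unstimulated CD8+ T cells before the 43.9, 58.0 and 38.1 and 6.82 RPKM at 4 hr. Its level was thus higher at 4 hr in both cell types and more so in the CD8+ library, and the log2 difference changed by -2.49 (SE 0.35, unadjusted p = 5.08e-06). Cish had 54.7, 65.5 and 54.0 RPKM in unstimulated Tregs and 1.87 RPKM in unstimulated CD8+ T cells. By 4 hr it stood at 138, 224 and 135 and 26.1 RPKM, a change in the log2 difference of -2.33 (SE 0.38, unadjusted p = 2.31e-05, adjusted p = 0.189). Both genes were still higher in Tregs at 4 hr, by a smaller ratio than before IL-2.

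Other genes moved the other way or apart. Lama5 had 0.240, 0.475 and 0.322 RPKM in unstimulated Tregs and 0.0686 RPKM in unstimulated CD8+ T cells, with a change in the log2 difference of 3.77 (SE 0.75, unadjusted p = 0.000171, adjusted p = 0.56). Gpsm2, which orients the mitotic spindle, had 1.34, 1.95 and 1.42 RPKM and 3.12 RPKM unstimulated against 7.73, 10.03 and 7.82 and 3.50 RPKM at 4 hr. It was lower in Tregs than in CD8+ T cells without cytokine and higher with it, a change of 2.26 (SE 0.42, unadjusted p = 9.55e-05, adjusted p = 0.522). Its call at 4 hr (log2 fold change 1.15, adjusted p = 0.0442) was lost without Treg replicate 1 (0.102), 2 (0.141) or 3 (0.0624). Tnf had 9.87, 9.66 and 10.9 RPKM in unstimulated Tregs and 2.03 RPKM in unstimulated CD8+ T cells, and Lta 3.84, 22.3 and 19.0 RPKM and 3.21 RPKM. At 4 hr the CD8+ library held 20.8 RPKM of Tnf and 43.4 RPKM of Lta, within or above the Treg range, and the log2 differences changed by -2.93 (SE 0.75, unadjusted p = 0.00147) and -2.12 (SE 0.99, unadjusted p = 0.0498) at adjusted p-values of 0.917 and 1.0. Il7r had 56.6, 86.1 and 65.7 RPKM in unstimulated Tregs and 130.0 RPKM in unstimulated CD8+ T cells, so its Treg levels were lower at 4 hr while the CD8+ level stayed near that of the unstimulated library (change -1.38, SE 0.56, unadjusted p = 0.0278). Bcl2 had 11.1, 35.8 and 25.8 RPKM and 30.4 RPKM without cytokine, where the CD8+ library lay among the Treg libraries. Ecm1 (41.3, 60.2 and 44.4 RPKM against 2.57 unstimulated) and Socs2 (6.51, 18.1 and 15.5 RPKM against 0.557) were higher at 4 hr in both cell types.

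**Figure D4:**
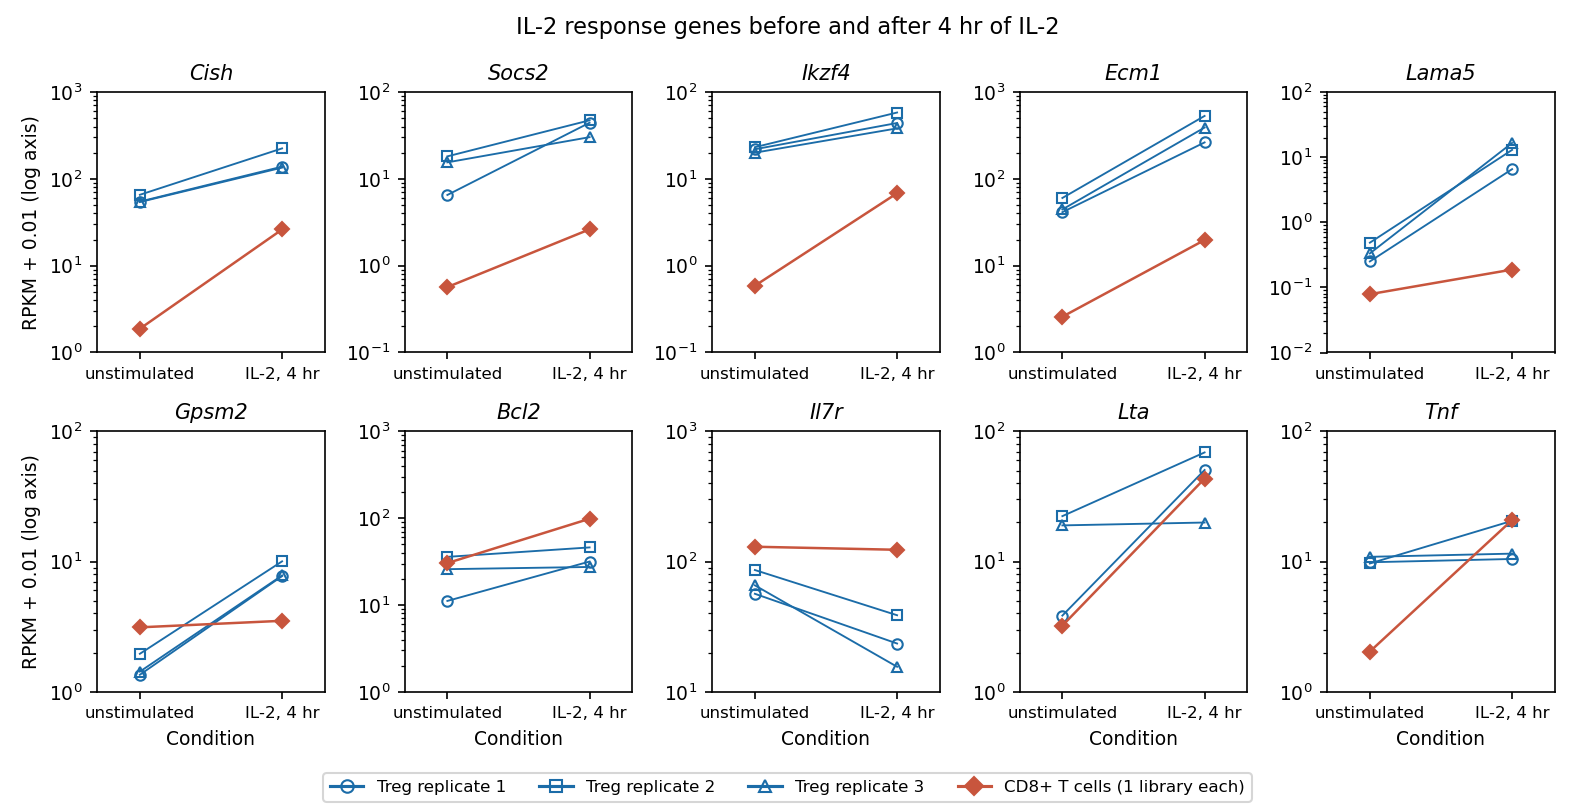
RPKM of 10 genes in unstimulated cells and after 4 hr of IL-2, on a log axis, with each Treg library and the CD8+ library as a separate point. Cish, Ikzf4 and Tnf climb more steeply in the CD8+ library than in Tregs, Lama5 and Gpsm2 climb in Tregs, and Il7r lies lower in Tregs with IL-2 than without, with no change of the difference at an adjusted p under 0.05.

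Levels over all 5 groups placed the 4 hr comparison in a wider range. Foxp3 ran from 65.2 to 252 (median 124) RPKM over the 15 Treg libraries (lowest, median, highest) and from 0.482 to 0.999 (median 0.645) RPKM over the 5 CD8+ libraries. Il2ra ran from 62.7 to 282 (median 120.5) RPKM and from 1.58 to 6.34 (median 3.20) RPKM, its highest CD8+ value being that of IL-2 at 4 hr. Cish ran from 54.0 to 262 (median 117) RPKM in Tregs and from 1.87 to 30.6 (median 2.47) RPKM in CD8+ T cells. For these genes the highest CD8+ library stayed below the lowest Treg library. Il7r ran from 15.6 to 86.1 (median 47.7) RPKM in Tregs and from 123 to 403 (median 164.1) RPKM in CD8+ T cells, and Cd8a from 0.0879 to 1.84 (median 0.201) RPKM and from 103 to 256 (median 165.2) RPKM, in each case with every Treg library below every CD8+ library. Bcl2 (11.1 to 46.0 (median 27.3) RPKM in Tregs, 13.4 to 98.5 (median 30.4) RPKM in CD8+ T cells), Tnf (6.51 to 23.3 (median 13.6) and 1.77 to 20.8 (median 2.55) RPKM) and Lta (3.84 to 71.0 (median 26.3) and 3.21 to 43.4 (median 4.37) RPKM) overlapped between the cell types, with their highest CD8+ value in the library given IL-2 for 4 hr.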

How the data were processed

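RNA was sequenced from mouse T cells stimulated ex vivo (Kapa mRNA HyperPrep libraries, HiSeq3000, single-end reads of 50 bases). The submitters' processing notes name TopHat2 2.1.1, Bowtie2 2.2.6, SAMtools 0.1.8, bedtools 2.25.0, edgeR and the build mm10 (GRCm38). Only uniquely mapped reads were kept. The authors deposited raw read counts on the exons of 31682 RefSeq transcripts, and beside each count the RPKM, in which the count is scaled to exon length and to the library's mapped reads. Strand use in counting is not stated.

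Each of 23992 symbols was represented by 1 transcript, that with most reads summed over the 20 libraries. The quasi-likelihood test of edgeR 4.0.16 (TMM, filterByExpr, glmQLFit, glmQLFTest) was run on the counts in R 4.3.3, with 1 mean for each of 10 groups over 20 libraries, which left 16399 genes. The 10 residual degrees of freedom all come from Tregs. Adjusted p-values are Benjamini-Hochberg values over all tested genes, and genes under 0.05 are called. The contrasts were Tregs against CD8+ T cells given IL-2 for 4 hr, the same unstimulated, and the difference between both. Intervals are at 95%. RPKM served for levels, with log2 ratios taken after adding 1 RPKM, which shrinks ratios of low genes. A gene without a read was set to a floor of 3 reads. Ratios with 1 to 3 reads in the CD8+ library pool the reads of the 3 Treg libraries, scaled to their summed mapped reads. Replicate 2, which had the most mapped reads of the 3, thus weighs most in them. Their exact counting intervals cover counting error only. Other fold ratios of levels are ratios of mean RPKM. Same-numbered Treg libraries deviated from their group means together (mean correlation across genes 0.518, lowest 0.122, against -0.247 for different numbers), so a fit with the Treg replicate number as a block was run. CD8+ libraries have no second replicate and lay outside that block. On simulated counts edgeR, with and without the block, called few unchanged genes, whereas DESeq2 called more of them than its threshold allows, so DESeq2 counts are likely too high. The simulated libraries varied independently, with no deviation shared by same-numbered Treg libraries. The simulation therefore cannot show how many unchanged genes the block calls in the measured libraries. The additive fit estimates a mean over all conditions, so its counts are no estimate of the difference at 4 hr. On counts simulated with changes at IL-2 for 4 hr, nearly all its calls were genes not changed there. The simulated counts kept the measured cell type differences of the other conditions, which this fit includes, so the simulation cannot say how many of its calls are false.

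The genes named are members of gene lists (Treg, CD4 and CD8 lineage, IL-2 signaling, STAT5 and IL-2 targets, receptor families, transcription factors, immediate early, T cell receptor, cell cycle, interferon and other cell types), the 15 highest and 15 lowest log2 fold changes among called genes with a mean of at least 1 RPKM, and the 5 most abundant called genes each way past a log2 fold change of 2. Members and lists were chosen with earlier results of these data known. Some genes that this rule names are not reported here. Xist, Ddx3y and Nnt were included as checks. Nnt, which differs between C57BL/6 substrains, had 3.90, 4.33 and 3.24 RPKM in Tregs and 2.09 RPKM in CD8+ T cells. Coordinates and promoter sequences came from RefSeq for GRCm38.p6. Alternatives were DESeq2 1.42.0, limma 3.58.1 on log2(RPKM + 1) and log2(RPKM + 0.1), other normalizations, filters, transcripts and library sets, the block, and an additive fit of condition and cell type. Python 3.11.15, numpy 2.4.6, pandas 2.3.3, scipy 1.17.1 and matplotlib 3.10.9 were used.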

Additional observations from a re-analysis of the deposited data

Results flagged for a closer look

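For 6 of the 114 named genes called in the comparison, all 3 Treg libraries given IL-2 for 4 hr stood above their same-numbered unstimulated library in log2(RPKM + 1), while the CD8+ library stood below its unstimulated library. Only the named genes were searched, so the share of all tested genes with this order is not known. The difference was not tested by this rule, and in the edgeR test of the change none of the 6 had an adjusted p-value under 0.05. The log2 ratios in Treg replicates 1, 2 and 3 and in the CD8+ library were 0.96, 0.76 and 0.08 against -0.014 for Ccr4 and 0.05, 0.01 and 0.28 against -0.82 for Gzmm. They were 1.74, 1.95 and 0.91 against -0.015 for Kcnj15 and 0.77, 0.43 and 0.68 against -0.10 for Ntn4. For Swap70, an exchange factor of Rac, they were 0.64, 1.72 and 2.17 against -0.050, and for Tnfrsf9 they were 0.81, 3.02 and 2.96 against -0.028. The CD8+ ratio of Gzmm was the only one far from 0. Groups of 3 and of 1 are too small for a check of single outlying libraries.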

How the results depend on the processing

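Apart from the additive fit, all fits rest on 1 CD8+ library given IL-2 for 4 hr, so its own error was not measured. In each of these fits that library is assumed to vary like the Tregs. The count of 988 genes was 1732 with DESeq2, 1707 with the replicate block and 6225 in an additive fit of condition and cell type. The additive fit takes all 15 Treg and 5 CD8+ libraries for the difference, so its count is not one for 4 hr. The count of 988 became 608 with limma on log2(RPKM + 1), 707 (77.9% of them higher in Tregs, against 65.6% in edgeR) with a pseudocount of 0.1, 422 among genes with a mean of at least 5 RPKM, which tests fewer genes, and 328 with only the compared groups in the fit, which leaves fewer libraries. With upper-quartile factors, total reads only, the longest transcript or no filter, it was within 1.5 times of 988. Without single replicates it ran from 365 to 1786. Past an absolute log2 fold change of 1 the count of 972 was 1584 with DESeq2, 3138 in the additive fit, 595 with limma on log2(RPKM + 1), 404 at 5 RPKM, 328 with only the compared groups, 1614 with the replicate block and 365 to 1656 without single replicates. Past 2 the count of 689 was 1656 in the additive fit, 267 with limma on log2(RPKM + 1), 219 at 5 RPKM, 321 with only the compared groups, 1049 with the replicate block and 299 to 930 without single replicates. Where no construction is named, the cause was not tested.

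The change from unstimulated cells, at 0 genes in edgeR, had 17 with DESeq2 (Cish, Gpsm2, Ikzf4 and Lama5 among them), 2 at 5 RPKM (Cish and Ikzf4), 1 with upper-quartile factors (Ikzf4), 0 with the replicate block, and 0 to 8 without single replicates. The 193 genes past a log2 ratio of 2 in all 3 pairs became 415 with a pseudocount of 0.1 and 725 at a threshold of 1. Of 145 named genes 114 were called. None of the 114 turned its direction under any alternative, 52 were called in all 15 alternative count fits that gave them a value, and 22 lost the call when at least 1 of the Treg libraries given IL-2 for 4 hr was left out. Without replicate 1, 2 or 3 in all Treg groups, 1, 34 and 51 of the 114 lost the call. The replicate block, which takes differences between Treg replicates out of the error, ended none of the 114 calls. Directions of genes that were not called turned in the additive fit for Cdk6 (0.32), Lta (1.24), Myc (0.70) and Tnf (1.09), and for Lta with total reads only (0.019). Without single replicates Lta ran from -0.45 to 0.26 and Myc from -0.45 to 0.12. Treg replicate 3 had the fewest reads, so low genes are least precise there.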
